A study of Homo sapiens with 24 samples.

Results

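Ruxolitinib and pacritinib, a pair of Janus kinase (JAK) inhibitors in clinical use, were compared directly in HEL cells after 48 h of treatment. HEL is a human erythroleukaemia line with a JAK2 mutation that keeps the kinase active, and it expresses red cell and platelet genes. The comparison used the 4 libraries that the labels assign to 500 nM ruxolitinib for 48 h (2 libraries) or 500 nM pacritinib for 48 h (2 libraries), of 24 libraries in the series. Genes were measured by RNA sequencing, and the 16076 genes with enough reads were tested. The ruxolitinib and pacritinib libraries of 4 h, also at 500 nM, and the DMSO (solvent control) libraries of 48 h, with 2 libraries per group, gave the reference points. All these groups share the same line and its JAK2 mutation. The labels do not say that the 2 libraries of a group came from separate cultures, so the p-values measure library-to-library spread, part or all of which may be technical.

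JAK2 sits on cytokine receptors such as the erythropoietin receptor and phosphorylates the STAT factors, chiefly STAT5 in red cell precursors. STATs then switch on genes for feedback inhibitors (CISH and the SOCS proteins), for PIM kinases and for survival proteins, while the same receptors feed the RAS-ERK pathway, which drives ETS factors and its own phosphatases. Ruxolitinib is a pyrrolopyrimidine that inhibits JAK1 and JAK2. Pacritinib is a macrocycle that inhibits JAK2 and several kinases outside the JAK family, among them FLT3, IRAK1 and ACVR1, a receptor for bone morphogenetic proteins (BMPs).

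Total counts were 35828073 and 33484457 in the ruxolitinib libraries, 32621857 and 37759745 in the pacritinib libraries, and 36232962 and 36251895 in the DMSO libraries of 48 h. Among the line's defining genes, GATA1, the master factor of red cell genes, had 222 and 234 CPM (counts scaled to the library's size) with ruxolitinib and 202 and 197 CPM with pacritinib. Of the marker lists of other cells, 0 of 4 tested T cell genes, 0 of 2 B cell genes, 0 of 3 monocyte genes, 0 of 1 epithelial gene and 0 of 2 fibroblast genes were called (1 T cell gene was without ruxolitinib replicate 1, and the epithelial gene without pacritinib replicate 1), and CD3G, MS4A1, FCGR3A, KRT5 and LUM had 0 counts in the 4 inhibitor libraries. The monocyte list summed to 36.9 to 39.7 CPM with ruxolitinib and 34.4 to 35.3 CPM with pacritinib. Granulocyte and mast cell genes, of which 2 of 3 were lower with ruxolitinib, summed to 36.3 and 33.2 CPM with ruxolitinib, 52.6 and 56.1 CPM with pacritinib and 58.3 and 62.6 CPM with DMSO. Mitochondrial rRNA took 0.0627 and 0.0584% of counts with ruxolitinib, 0.128 and 0.115% with pacritinib and 0.0586 and 0.0912% with DMSO. Copies of the signal recognition particle RNA (RN7SL) took 3.92 and 3.99% with ruxolitinib, 4.52 and 4.76% with pacritinib and 3.05 and 3.36% with DMSO. Such shares can depend on how intact the RNA was and how libraries were made, and their part in the results below was not tested.

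At 48 h, 2062 genes were higher with ruxolitinib than with pacritinib and 1898 were lower, which was 12.8% and 11.8% of the 16076 genes tested (edgeR quasi-likelihood test, Benjamini-Hochberg adjusted p under 0.05, the threshold behind every gene called here). Most of these differences were small. Under 1.25-fold lay 1047 of the higher genes (50.8%) and 917 of the lower genes (48.3%), and 120 higher genes (0.746% of those tested) and 247 lower genes (1.54%) differed at least 2-fold. The call was kept in each of the 4 fits that left out 1 inhibitor library for 1828 genes (46.2% of 3960). The ruxolitinib and pacritinib libraries did not overlap for 59.8% of all tested genes.

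**Figure D1:**
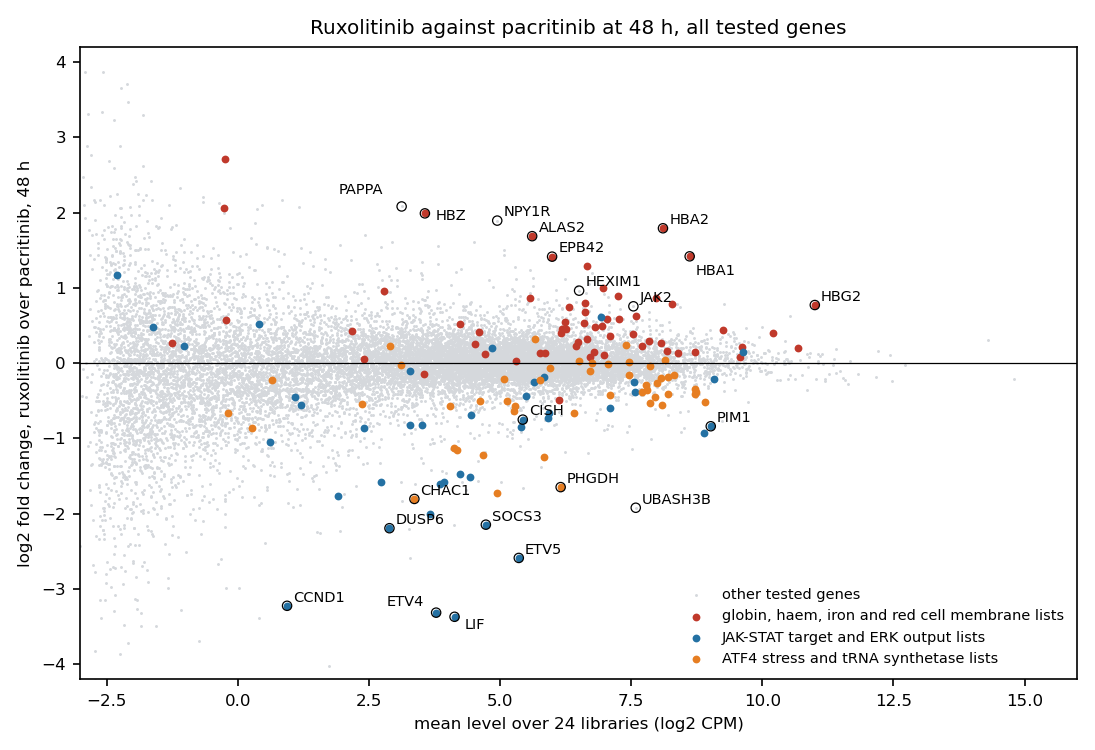
Each point is 1 tested gene. The horizontal axis is its mean level over the 24 libraries (log2 CPM) and the vertical axis its log2 fold change, ruxolitinib over pacritinib at 48 h. Red cell genes (red) lie mostly above 0, with HBZ at 1.99 and ALAS2 at 1.69, and JAK-STAT and ERK genes (blue) mostly below, with LIF at -3.37 and ETV4 at -3.32. Circled points are labelled, and 36 genes lie outside the axes.

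Red cell genes were higher with ruxolitinib. The products of these genes are the globin chains, the enzymes that build haem, the iron carriers that supply it, and the membrane skeleton that gives a red cell its shape. ALAS2, the rate-limiting enzyme of haem synthesis in red cell precursors (chromosome X from 55009055 to 55031064, GRCh38), had 133 and 135 CPM with ruxolitinib, 45.8 and 37.7 CPM with pacritinib and 36.3 and 35.4 CPM with DMSO. Both ruxolitinib libraries were above all others, and the pacritinib libraries lay just above DMSO. The log2 fold change, ruxolitinib over pacritinib, was 1.69 ± 0.08 (SE, adjusted p = 1.53e-16). EPB42, a protein that ties the skeleton to the membrane (chromosome 15 from 43197227 to 43221125), had 123 and 123 CPM with ruxolitinib, 46.4 and 46.0 CPM with pacritinib and 65.1 and 63.2 CPM with DMSO. Here the pacritinib libraries were the lowest (1.41 ± 0.05, adjusted p = 5.07e-20). In a bulk sample, more cells with red cell features and more of these RNAs per cell cannot be told apart.

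The promoters of these 2 genes are shown because GATA1 binds the letters AGATAA. Each line gives the 250 bases before the gene's RefSeq start (GRCh38.p14, minus strand, 5′ to 3′), with AGATAA or its reverse complement in capitals. The windows are ALAS2 at chrX:55030978-55031227 and EPB42 at chr15:43221019-43221268. Both windows overlap the GENCODE genes, whose starts lie further upstream, and the second AGATAA of EPB42 lies inside its GENCODE gene.
ALAS2: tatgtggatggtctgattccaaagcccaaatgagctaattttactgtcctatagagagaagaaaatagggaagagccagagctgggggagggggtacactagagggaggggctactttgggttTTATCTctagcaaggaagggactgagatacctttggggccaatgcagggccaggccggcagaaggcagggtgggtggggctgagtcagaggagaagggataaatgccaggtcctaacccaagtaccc
EPB42: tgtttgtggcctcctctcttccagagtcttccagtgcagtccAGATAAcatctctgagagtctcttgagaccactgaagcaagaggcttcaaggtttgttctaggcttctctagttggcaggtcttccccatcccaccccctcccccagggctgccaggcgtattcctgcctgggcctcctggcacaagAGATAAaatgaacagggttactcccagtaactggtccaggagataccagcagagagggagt
The letters were found, on either strand, in 5.14% of the promoters of 11333 tested genes, in 5 of 19 promoters of the membrane list (26.3%), in 2 of 18 of the haem and iron list (11.1%), and in 11 of 86 promoters of genes at least 2-fold higher with ruxolitinib (12.8%). A match is a string of letters and no measurement of binding.

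Of the 10 globin genes tested, 9 were higher with ruxolitinib and 0 lower, with a median log2 fold change of 0.91, against a share of 12.8% higher among all tested genes. All globin reads together made up 5296 and 5109 CPM with ruxolitinib, 2664 and 2675 CPM with pacritinib and 2689 and 2668 CPM with DMSO. HBZ, the embryonic alpha-like chain, had 34.6 and 32.4 CPM with ruxolitinib, 9.08 and 7.83 CPM with pacritinib and 7.65 and 5.26 CPM with DMSO (1.99 ± 0.13, adjusted p = 1.66e-13). HBA2, an adult alpha chain (chromosome 16 from 172876 to 173710), had 766 and 727 CPM with ruxolitinib, 227 and 204 CPM with pacritinib and 159 and 152 CPM with DMSO (1.79 ± 0.10, adjusted p = 1.99e-15). In both genes the ruxolitinib libraries stood above all others. HBA2 and HBA1 (1.42 ± 0.10) are near-identical, so the split of reads between them is uncertain. The fetal chain HBG2 had 2964 and 2958 CPM with ruxolitinib, 1721 and 1751 CPM with pacritinib and 1798 and 1786 CPM with DMSO (0.77 ± 0.06, adjusted p = 9.07e-12). It too has a near-identical neighbour. HBM, a minor chain of the alpha cluster, differed most but at a low level, with 3.28 and 2.82 CPM with ruxolitinib and 0.339 and 0.578 CPM with pacritinib (2.71 ± 0.39). The embryonic beta-like chain HBE1 had 332 and 304 CPM with ruxolitinib, 176 and 173 CPM with pacritinib and 243 and 231 CPM with DMSO (0.86 ± 0.06), so the 2 inhibitors lay on opposite sides of DMSO. HBD, the minor adult chain, was the member not called (0.05, 95% interval -0.24 to 0.35), with 5.65 and 6.04 CPM with ruxolitinib and 5.67 and 5.60 CPM with pacritinib.

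In the haem and iron list, 17 of 25 genes were higher with ruxolitinib and 1 lower, with a median of 0.36. Beside this list and the membrane list, 12.8% of all tested genes were higher and 11.8% lower. BLVRB, a reductase of haem breakdown products, had 242 and 253 CPM with ruxolitinib, 107 and 94.7 CPM with pacritinib and 75.3 and 73.6 CPM with DMSO (1.29 ± 0.08, adjusted p = 2.05e-14). ALAD, which acts directly after ALAS2 in the pathway, followed (0.87 ± 0.06), as did the mitochondrial iron importer SLC25A37 (0.79 ± 0.05) and the iron exporter SLC40A1 (0.59 ± 0.05). The 1 lower gene was ALAS1 (-0.49), the isoenzyme of ALAS2 that other tissues use, which was named after its value was seen. In the red cell membrane list, 20 of 25 genes were higher and 0 lower, with a median of 0.43. After EPB42, differences at more than a few CPM included those in the spectrin chain SPTB (0.90 ± 0.05) and the blood group protein RHD (0.80 ± 0.05). The water channel AQP1 (2.06 ± 0.40, adjusted p = 0.000212) rested on 1.81 and 2.16 CPM with ruxolitinib and 0.616 and 0.342 CPM with pacritinib.

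Of the 15 red cell transcription factors tested 8 were higher and 3 lower with ruxolitinib (median 0.19), and the 3 lower ones became 1 when any 1 of the 4 inhibitor libraries was left out. ZFPM1, the partner of GATA1, had 186 and 187 CPM with ruxolitinib, 109 and 110 CPM with pacritinib and 133 and 122 CPM with DMSO (0.77 ± 0.06, adjusted p = 2.67e-11). LMO2 (0.52 ± 0.05), KLF3 (0.48 ± 0.06), KLF1 (0.45 ± 0.05) and LDB1 (0.39 ± 0.05), which bind with GATA1 or beside it at red cell genes, were also higher. Beside the counts of this list, 12.8% of all tested genes were higher and 11.8% lower.

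**Figure D2:**
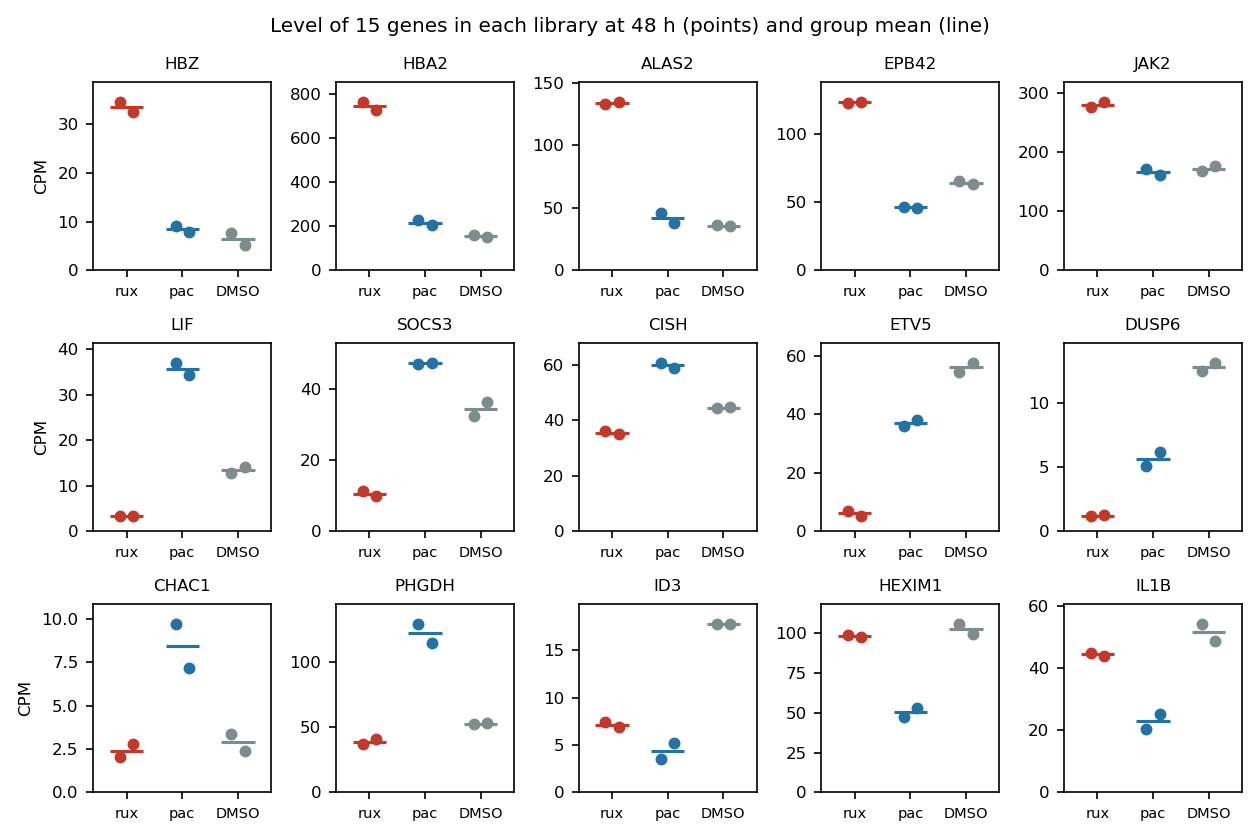
The level of 15 genes in each library at 48 h (CPM, linear axis from 0). Points are libraries and lines are group means, with ruxolitinib (rux) at left, pacritinib (pac) in the middle and DMSO at right. In the top row the ruxolitinib points stand above the others (ALAS2 at 133 and 135 CPM), in the middle row they stand below (LIF at 3.42 and 3.45 CPM), and HEXIM1 and IL1B are lowest with pacritinib.

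JAK-STAT target genes were lower with ruxolitinib. Of 23 tested, 18 were lower and 2 higher (1 without ruxolitinib replicate 2 or pacritinib replicate 2), with a median of -0.74, against 11.8% lower among all tested genes. CISH, a SOCS-family inhibitor that STAT5 induces (chromosome 3 from 50606490 to 50611831), had 36.0 and 35.0 CPM with ruxolitinib, 60.7 and 58.9 CPM with pacritinib and 44.4 and 44.6 CPM with DMSO (-0.75 ± 0.08, adjusted p = 1.78e-09). The ruxolitinib libraries were below DMSO and the pacritinib libraries above it. SOCS3 (chromosome 17 from 78356778 to 78360077), a feedback inhibitor of receptors that signal through STAT3, had 11.3 and 9.97 CPM with ruxolitinib, 47.1 and 47.5 CPM with pacritinib and 32.6 and 36.4 CPM with DMSO (-2.15 ± 0.13, adjusted p = 2.91e-14). It showed the same order.

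The promoter of CISH is shown because it holds 4 copies of TTCNNNGAA, the palindrome that STAT dimers bind, in capitals (chr3:50611775-50612024, GRCh38.p14, minus strand, 5′ to 3′, 250 bases before the RefSeq start).
CISH: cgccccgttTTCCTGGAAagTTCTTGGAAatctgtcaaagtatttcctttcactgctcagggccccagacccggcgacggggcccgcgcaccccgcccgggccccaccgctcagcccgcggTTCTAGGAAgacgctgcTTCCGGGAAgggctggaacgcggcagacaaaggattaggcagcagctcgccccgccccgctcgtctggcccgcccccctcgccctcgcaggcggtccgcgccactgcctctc
These letters, which read the same on both strands, were found in 5.66% of the promoters of tested genes, in 3 of 17 promoters of the JAK-STAT list (17.6%), and in 6 of 147 promoters of genes at least 2-fold lower with ruxolitinib (4.08%). The window overlaps the GENCODE gene, whose start lies further upstream, and covers no distal sites.

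The largest difference of the list was in a cytokine gene. LIF, a cytokine of the interleukin 6 family (chromosome 22 from 30240447 to 30246851), had 3.42 and 3.45 CPM with ruxolitinib, 37.0 and 34.3 CPM with pacritinib and 12.8 and 14.2 CPM with DMSO, a 10.3-fold difference between the inhibitors (-3.37 ± 0.15, adjusted p = 1.16e-17). Its relative OSM had 1.89 and 2.70 CPM with ruxolitinib, 7.54 and 8.04 CPM with pacritinib and 3.23 and 2.89 CPM with DMSO (-1.77 ± 0.17, adjusted p = 1.28e-09). For both, pacritinib was the highest of the 3 groups and the libraries of the inhibitors did not overlap. Receptor genes on the list were lower too: IL21R (-1.60 ± 0.12) and IL4R (-1.58 ± 0.12).

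The kinases and survival genes on the list differed by less. PIM1, a serine/threonine kinase that supports survival, had 365 and 341 CPM with ruxolitinib, 623 and 640 CPM with pacritinib and 564 and 573 CPM with DMSO (-0.84 ± 0.05, adjusted p = 7.32e-14), and PIM2 was also lower (-0.60 ± 0.06). The anti-apoptotic genes BCL2 (-0.82 ± 0.11), BCL2L1 (-0.39 ± 0.04) and MCL1 (-0.25 ± 0.05) were lower, which makes 3 of the 5 anti-apoptotic genes tested. Beside this list and the pro-apoptotic list, 12.8% of all tested genes were higher and 11.8% lower. Of 10 pro-apoptotic genes 2 were higher (1 without ruxolitinib replicate 1) and 3 lower. CCND2, a D-type cyclin, had 271 and 262 CPM with ruxolitinib, 491 and 527 CPM with pacritinib and 581 and 581 CPM with DMSO (-0.93 ± 0.05). Also lower were BCL3 (-2.0 ± 0.17), a co-activator of NF-kB, and SOCS1 (-1.58 ± 0.19) and SOCS2 (-0.69 ± 0.08). The 2 higher members were MYC (0.15 ± 0.04, adjusted p = 0.00591) and LMNA (0.61), which was named after its value was seen. MYC lost its call without ruxolitinib replicate 2 (adjusted p = 0.0615) and without pacritinib replicate 2 (adjusted p = 0.0522).

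The genes for the signalling machinery itself split: 11 of 30 JAK, STAT, receptor and regulator genes were higher with ruxolitinib and 6 lower (median 0.07). The shares among all tested genes were 12.8% higher and 11.8% lower. JAK2 (chromosome 9 from 4984390 to 5128183) had 276 and 286 CPM with ruxolitinib, 171 and 162 CPM with pacritinib and 168 and 177 CPM with DMSO (0.75 ± 0.05, adjusted p = 7.65e-13). The pacritinib and DMSO libraries of JAK2 overlapped. The erythropoietin receptor EPOR was higher (0.72 ± 0.07) and so was CSF2RB, the shared chain of the interleukin 3, interleukin 5 and GM-CSF receptors (0.67 ± 0.05). SH2B3, an adaptor that restrains JAK2, was lower (-0.54 ± 0.05), as was IFNGR2 (-0.54 ± 0.11).

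Outputs of the ERK pathway were lower with ruxolitinib in 11 of 18 genes and higher in 0, with a median of -0.84. The shares among all tested genes were 11.8% lower and 12.8% higher. ETV4 (chromosome 17 from 43527844 to 43579620) and ETV5 (chromosome 3 from 186046308 to 186110318) are ETS factors that ERK signalling induces. ETV4 had 1.30 and 1.05 CPM with ruxolitinib, 9.61 and 13.8 CPM with pacritinib and 21.6 and 21.2 CPM with DMSO (-3.32 ± 0.18, adjusted p = 1.04e-15). ETV5 had 6.95 and 5.35 CPM with ruxolitinib, 36.1 and 38.2 CPM with pacritinib and 54.6 and 57.6 CPM with DMSO (-2.59 ± 0.10, adjusted p = 2.38e-19). Both genes fell under each inhibitor relative to DMSO, and further with ruxolitinib. DUSP6, the phosphatase that switches ERK off, had 1.22 and 1.26 CPM with ruxolitinib, 5.08 and 6.23 CPM with pacritinib and 12.5 and 13.2 CPM with DMSO (-2.19 ± 0.17, adjusted p = 4.18e-12). The immediate early factor EGR1 (-1.52 ± 0.15) and PHLDA1 (-1.47 ± 0.17) were lower as well. CCND1 had 0.170 and 0.0601 CPM with ruxolitinib and 0.955 and 1.26 CPM with pacritinib, against 5.05 and 4.62 CPM with DMSO, so its fold change (-3.23 ± 0.44) rests on few reads.

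Several of the most changed genes belonged to none of these pathways' lists. UBASH3B, a phosphatase that acts on tyrosine kinases (chromosome 11 from 122655675 to 122814473), had 52.8 and 50.3 CPM with ruxolitinib, 189 and 202 CPM with pacritinib and 264 and 264 CPM with DMSO (-1.92 ± 0.06, adjusted p = 2.4e-22). Other genes at least 3-fold lower with ruxolitinib were WNT11, a secreted WNT ligand (-2.59 ± 0.19), SLC34A1, a phosphate transporter (-2.20 ± 0.17), IL1RL1, the receptor of interleukin 33 (-2.15 ± 0.10), EPAS1, a hypoxia-inducible factor (-2.04 ± 0.12), HES1, the Notch effector (-1.84 ± 0.13), BHLHE40, a repressor of clock genes (-1.68 ± 0.09), and GRAP2, an adaptor of immune receptors (-1.66 ± 0.07). On the other side, PAPPA, a protease that frees insulin-like growth factors (chromosome 9 from 116153804 to 116402322), had 29.3 and 28.6 CPM with ruxolitinib, 7.54 and 6.20 CPM with pacritinib and 5.81 and 5.86 CPM with DMSO (2.08 ± 0.12, adjusted p = 2.73e-15). NPY1R, a receptor of neuropeptide Y (chromosome 4 from 163323961 to 163344832), had 60.6 and 62.8 CPM with ruxolitinib, 15 and 18.1 CPM with pacritinib and 29.2 and 30.4 CPM with DMSO (1.89 ± 0.09, adjusted p = 6.23e-17). For NPY1R the inhibitors lay on opposite sides of DMSO. PKLR, the pyruvate kinase of liver and red cells (1.61 ± 0.08), ITLN1 (1.51 ± 0.08) and ITLN2 (1.55 ± 0.10), a pair of related lectins whose reads may be shared, the glycosyltransferase B3GNT7 (1.43 ± 0.08), SHISA7 (1.34 ± 0.13), the cyclic GMP phosphodiesterase PDE5A (1.31 ± 0.09) and the R-spondin receptor LGR4 (1.28 ± 0.07) were also at least 2-fold higher with ruxolitinib.

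**Figure D3:**
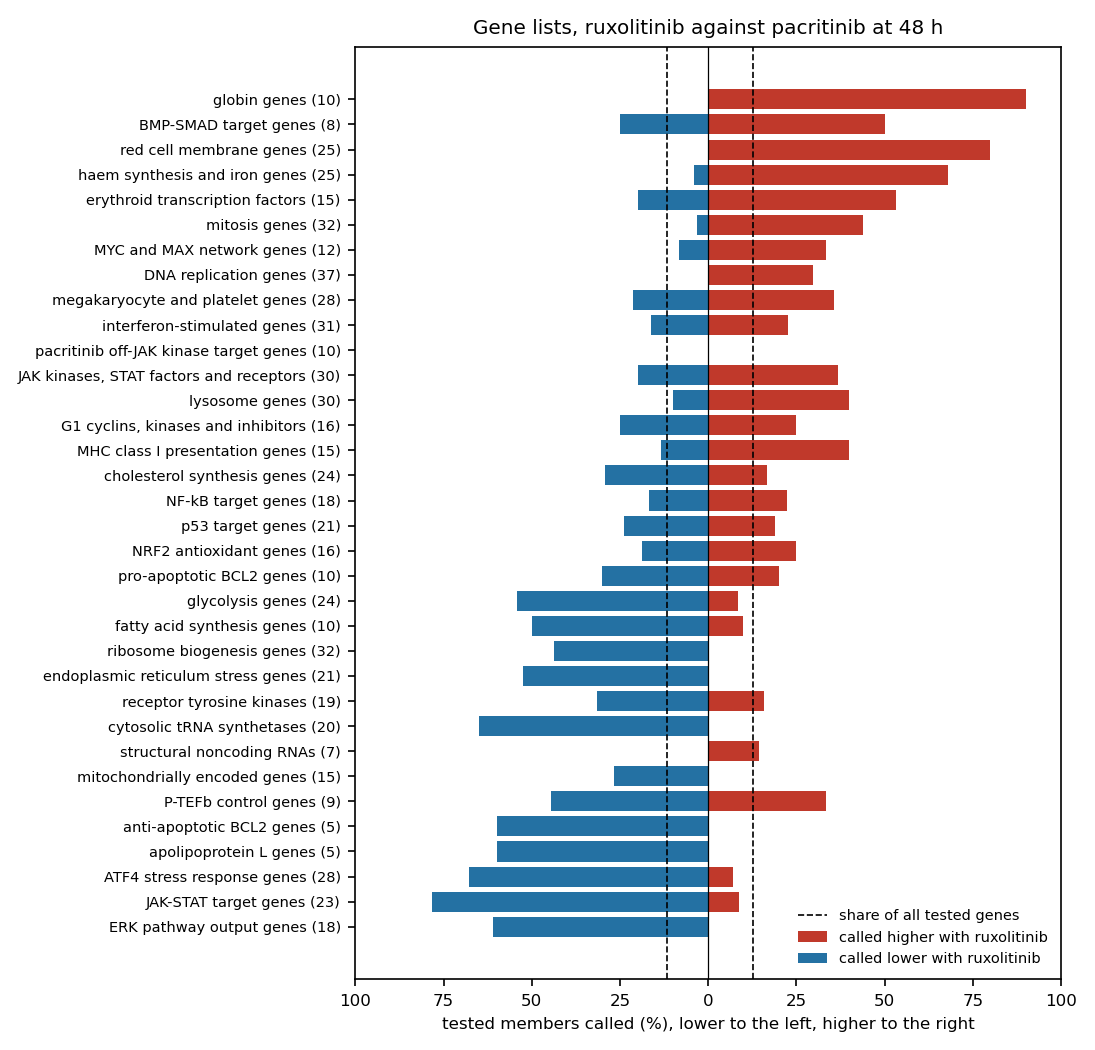
Share of the tested members of each gene list that was called higher (right) or lower (left) with ruxolitinib than with pacritinib at 48 h, sorted by the median log2 fold change, with the number tested in brackets. Dashed lines mark the share among all tested genes (12.8% higher, 11.8% lower). The globin list (9 of 10 higher) is at the top and the ERK list (11 of 18 lower) at the bottom.

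Genes of the amino acid stress response were higher with pacritinib. ATF4 is the factor that cells make when amino acids run short or proteins misfold, and it switches on genes that make and import amino acids. Of the 28 genes on the ATF4 list, 19 were lower with ruxolitinib than with pacritinib and 2 higher, with a median of -0.52. The shares among all tested genes were 11.8% lower and 12.8% higher. The higher ones became 1 without ruxolitinib replicate 2 or pacritinib replicate 1. CHAC1, an enzyme that degrades glutathione (chromosome 15 from 40952962 to 40956519), had 2.03 and 2.79 CPM with ruxolitinib, 9.73 and 7.20 CPM with pacritinib and 3.39 and 2.4 CPM with DMSO (-1.81 ± 0.18, adjusted p = 3e-09). PHGDH, the first enzyme of serine synthesis (chromosome 1 from 119648411 to 119744226), had 36.9 and 40.9 CPM with ruxolitinib, 129 and 115 CPM with pacritinib and 52.4 and 52.9 CPM with DMSO (-1.65 ± 0.07, adjusted p = 1.55e-17). In both genes the pacritinib libraries stood above all others. PSAT1, the next enzyme of serine synthesis, had 32.0 and 29.9 CPM with ruxolitinib, 77.2 and 69.7 CPM with pacritinib and 45.5 and 43.5 CPM with DMSO (-1.25 ± 0.07, adjusted p = 8.46e-16). ASNS, which makes asparagine (-1.13 ± 0.13), SLC7A11, the cystine importer (-1.16 ± 0.12), PCK2, a mitochondrial enzyme that makes phosphoenolpyruvate (-1.22 ± 0.09), and DDIT4, an inhibitor of mTORC1 (-1.73 ± 0.14), were lower with ruxolitinib too. The sensors and brakes of the response differed less, with SESN2 at -0.57 ± 0.07 and TRIB3 at -0.51 ± 0.09.

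The CHAC1 promoter is shown because it holds 1 match to TGATGNAA, a composite element that ATF4 binds with its partners, here read on the other strand and printed in capitals (chr15:40953221-40953470, GRCh38.p14, plus strand, 5′ to 3′, 250 bases before the RefSeq start, which lies inside the longer GENCODE gene).
CHAC1: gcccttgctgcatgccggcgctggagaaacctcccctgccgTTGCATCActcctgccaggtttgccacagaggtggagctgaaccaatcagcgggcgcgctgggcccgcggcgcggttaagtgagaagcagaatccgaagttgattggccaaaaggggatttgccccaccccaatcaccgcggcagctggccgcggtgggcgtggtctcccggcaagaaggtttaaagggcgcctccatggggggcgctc
The letters were found on either strand in 1.52% of the promoters of tested genes and in 3 of 24 promoters of the ATF4 list (12.5%). They were also found in 2 of 19 promoters of the red cell membrane list (10.5%), and in 3.49% of promoters of genes at least 2-fold higher with ruxolitinib and 4.08% of those at least 2-fold lower.

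The cytosolic tRNA synthetases, which load amino acids onto tRNAs and of which several are ATF4 targets, were lower with ruxolitinib in 13 of 20 genes and higher in 0 (median -0.19). Beside this list and the endoplasmic reticulum list below, 11.8% of all tested genes were lower and 12.8% higher. WARS had 61.1 and 58.8 CPM with ruxolitinib, 105 and 86.4 CPM with pacritinib and 73.1 and 70.8 CPM with DMSO (-0.67 ± 0.06, adjusted p = 8.09e-10). CARS (-0.64 ± 0.08) and GARS (-0.54 ± 0.05) came next. Chaperones and sensors of the endoplasmic reticulum were lower in 11 of 21 genes and higher in 0 (median -0.15). HERPUD1 (-0.62 ± 0.08) and SDF2L1 (-0.48 ± 0.08) led them, and the count fell when any 1 inhibitor library was left out. Against DMSO, 12 of these genes were lower and 0 higher with ruxolitinib (median -0.23), beside 13.2% and 12.5% of all tested genes. With pacritinib 5 were lower and 2 higher than DMSO (median -0.05), beside 10.1% and 8.26% of all. Both pacritinib counts fell when 1 library was left out.

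HEXIM1 and IL1B were lowest with pacritinib. HEXIM1, an inhibitor of the elongation kinase P-TEFb (chromosome 17 from 45148502 to 45152101), had 99.2 and 97.9 CPM with ruxolitinib, 47.7 and 53.3 CPM with pacritinib and 106 and 99.8 CPM with DMSO (0.96 ± 0.06, adjusted p = 4.68e-14). The pacritinib libraries lay below all others. Against DMSO, pacritinib was at -1.02 ± 0.06 (adjusted p = 1.59e-13), and ruxolitinib was not called (-0.06, 95% interval -0.18 to 0.06). The list of P-TEFb control genes did not share one direction: of 9 tested, 3, HEXIM1 among them, were higher and 4 lower with ruxolitinib. Beside this list and the NF-kB list below, 12.8% of all tested genes were higher and 11.8% lower. CDK9, the kinase of P-TEFb, was lower (-0.38 ± 0.05), and MEPCE, which caps the RNA that holds P-TEFb inactive, was higher (0.21 ± 0.06) but lost its call without ruxolitinib replicate 2 (adjusted p = 0.0517) and without pacritinib replicate 1 (adjusted p = 0.0553). IL1B, the inflammatory cytokine, had 44.9 and 43.9 CPM with ruxolitinib, 20.5 and 25.1 CPM with pacritinib and 54.2 and 48.7 CPM with DMSO (0.96 ± 0.08, adjusted p = 3.49e-11). The NF-kB list that holds it was mixed, with 4 of 18 genes higher, IL1B among them (2 without ruxolitinib replicate 2 or pacritinib replicate 1) and 3 lower.

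The inhibitors of DNA binding ID2 and ID3, targets of BMP signalling through SMAD factors, fell with both inhibitors relative to DMSO and were lowest with pacritinib. ID2 had 11.2 and 10.6 CPM with ruxolitinib, 6.22 and 7.65 CPM with pacritinib and 18.1 and 20.5 CPM with DMSO (0.65 ± 0.12, adjusted p = 0.000129). ID3 had 7.40 and 6.94 CPM with ruxolitinib, 3.51 and 5.26 CPM with pacritinib and 17.8 and 17.8 CPM with DMSO (0.70 ± 0.14, adjusted p = 0.000277). Their relative ID1 had the opposite order, with 33.2 and 35.8 CPM with ruxolitinib, 50.7 and 64.0 CPM with pacritinib and 85.1 and 90.8 CPM with DMSO (-0.73 ± 0.08, adjusted p = 8.25e-09). Among the other 5 BMP-SMAD genes tested, the inhibitory SMAD6 (0.58 ± 0.06) and the decoy receptor BAMBI (0.30 ± 0.08) were higher with ruxolitinib and SMAD7 was lower (-1.01), while ID4 (1.18) and SMAD9 (-0.45) were not called. SMAD7 (adjusted p = 0.0216) lost its call without ruxolitinib replicate 2 (adjusted p = 0.339) and without pacritinib replicate 1 (adjusted p = 0.111) or 2 (adjusted p = 0.0523). BAMBI lost its call without ruxolitinib replicate 2 (adjusted p = 0.0541) and without pacritinib replicate 1 (adjusted p = 0.151). Genes for the kinases outside the JAK family that pacritinib inhibits, and for their partners, were called in 0 of 10 by edgeR. DESeq2 also called 0, and the edgeR count moved without pacritinib replicate 2. The share called among all tested genes was 24.6%. At 4 h, 5 of these 10 genes were higher with ruxolitinib and 1 lower, beside 14.5% higher and 11.1% lower among all tested genes.

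Platelet genes split. Of 28 megakaryocyte and platelet genes, 10 were higher with ruxolitinib and 6 lower (median 0.10). The shares among all tested genes were 12.8% higher and 11.8% lower. TUBB1, the platelet beta tubulin, had 45.3 and 47.6 CPM with ruxolitinib, 21.1 and 17.9 CPM with pacritinib and 14.7 and 15.9 CPM with DMSO (1.25 ± 0.09, adjusted p = 1.7e-12). GP9, a chain of the von Willebrand factor receptor, had 107 and 112 CPM with ruxolitinib, 47.5 and 52.9 CPM with pacritinib and 77.4 and 69.6 CPM with DMSO (1.12 ± 0.08, adjusted p = 3.09e-13). The collagen receptor GP6 went the other way, with 7.23 and 5.59 CPM with ruxolitinib, 18.8 and 19.2 CPM with pacritinib and 32.8 and 33.3 CPM with DMSO (-1.56 ± 0.10, adjusted p = 1.06e-13), and so did THBS1 (-0.92 ± 0.09) and MMRN1 (-0.80 ± 0.08), proteins of platelet granules. ITGA2B, the integrin chain that marks the lineage, was not called (0.09, 95% interval 0.00 to 0.18, adjusted p = 0.128). Of the mast cell genes, MS4A2, a chain of the IgE receptor, had 9.58 and 8.80 CPM with ruxolitinib, 14.3 and 15.5 CPM with pacritinib and 9.79 and 8.72 CPM with DMSO (-0.70 ± 0.11), and the protease CPA3 was lower as well (-0.62 ± 0.08).

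Genes of the cell cycle were slightly higher with ruxolitinib than with pacritinib. For the lists of this paragraph, the shares among all tested genes were 12.8% higher and 11.8% lower. Of 32 mitosis genes, 14 were higher and 1 lower (median 0.13), and of 37 DNA replication genes 11 were higher and 0 lower (median 0.10). KIF20A, a kinesin of cytokinesis (0.52 ± 0.06), the checkpoint kinase BUB1 (0.51 ± 0.05), CDK1 (0.39 ± 0.05), the ribonucleotide reductase chain RRM2 (0.46 ± 0.04) and E2F2 (0.31 ± 0.05) led these lists. The 1 lower mitosis gene was not called without ruxolitinib replicate 2 or either pacritinib replicate, and 1 replication gene was called lower without ruxolitinib replicate 2. The count of higher mitosis genes was 7 without ruxolitinib replicate 1 and 8 without pacritinib replicate 1, and of higher replication genes 5 without ruxolitinib replicate 1 or 2 and 7 without pacritinib replicate 1. Against DMSO, 5 mitosis genes were higher and 6 lower with ruxolitinib (median -0.03). With pacritinib 0 were higher and 14 lower (median -0.16). Of the replication genes, 7 were higher than DMSO and 1 lower with ruxolitinib (median 0.06). With pacritinib 2 were higher and 5 lower (median -0.04). Among all tested genes, 12.5% were higher and 13.2% lower with ruxolitinib, and 8.26% and 10.1% with pacritinib. Between the 2 drugs, 4 of 16 genes of G1 control were higher with ruxolitinib and 4 lower. The cell cycle inhibitor CDKN1B was higher (0.41 ± 0.07) and the D-type cyclins lower. CCNE2 (0.34 ± 0.10, adjusted p = 0.0147) lost its call without ruxolitinib replicate 1 (adjusted p = 0.0664) or 2 (adjusted p = 0.0674) and without pacritinib replicate 2 (adjusted p = 0.19). In the MYC network 4 of 12 genes were higher and 1 lower. MXD4, a MAX partner that opposes MYC, had 10.6 and 10.6 CPM with ruxolitinib, 4.03 and 4.50 CPM with pacritinib and 6.21 and 5.18 CPM with DMSO (1.31 ± 0.15, adjusted p = 2.85e-08). MYCN (0.79 ± 0.20) lost its call without pacritinib replicate 1 (adjusted p = 0.0857). Ribosome biogenesis genes were lower with ruxolitinib in 14 of 32 and higher in 0 (median -0.15), led by RRP9 (-0.45 ± 0.06) and RRP1B (-0.41 ± 0.04), and the count was 9 without ruxolitinib replicate 2. Of 21 p53 target genes 4 were higher, among them BTG2 (0.61 ± 0.06), and 5 lower (3 without ruxolitinib replicate 1 or pacritinib replicate 2).

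In metabolism, glycolysis genes were lower with ruxolitinib in 13 of 24 and higher in 2 (median -0.14). The glucose transporter SLC2A3 had 65.9 and 65.2 CPM with ruxolitinib, 112 and 128 CPM with pacritinib and 148 and 153 CPM with DMSO (-0.87 ± 0.06, adjusted p = 8.12e-14), and PFKM was also lower (-0.46 ± 0.06), against PKLR as the largest increase. Of 24 cholesterol synthesis genes 4 were higher and 7 lower, and the 7 became 2 without ruxolitinib replicate 2, 3 without ruxolitinib replicate 1 and 2 without pacritinib replicate 2. DHCR7, the last enzyme of the pathway, was lower (-0.35 ± 0.06). HMGCS1, an early one, was higher (0.23 ± 0.06, adjusted p = 0.00465) and lost its call without ruxolitinib replicate 1 (adjusted p = 0.103) and without pacritinib replicate 2 (adjusted p = 0.0519). In fatty acid synthesis 1 of 10 genes was higher and 5 lower, SCD among them (-0.31 ± 0.05). The count of 5 became 2 without ruxolitinib replicate 2 or pacritinib replicate 2 and 3 without ruxolitinib replicate 1, and the 1 higher gene was lost without either ruxolitinib replicate or pacritinib replicate 1. Antioxidant genes driven by NRF2 were mixed, with 4 of 16 higher and 3 lower. Beside the metabolic lists, the shares among all tested genes were 12.8% higher and 11.8% lower.

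Of the 15 genes that present antigen on MHC class I, 6 were higher and 2 lower (1 without ruxolitinib replicate 2 or pacritinib replicate 1). PSMB9, an immunoproteasome subunit, had 80.4 and 83.0 CPM with ruxolitinib, 53 and 46.5 CPM with pacritinib and 50.2 and 47.8 CPM with DMSO (0.72 ± 0.06, adjusted p = 6.81e-11), and TAP1 (0.68 ± 0.06) and HLA-B (0.57 ± 0.06) were higher too. Of 31 interferon-stimulated genes 7 were higher (4 without pacritinib replicate 2), led by IFIT2 (0.95 ± 0.18), and 5 lower (2 without ruxolitinib replicate 2 or pacritinib replicate 1). Lysosome genes were higher in 12 of 30, with the protease CTSL at 0.46 ± 0.07 and the proton pump subunit ATP6V1A at 0.45 ± 0.06, and lower in 3, which became 0 without ruxolitinib replicate 1 or pacritinib replicate 1 and 1 without ruxolitinib replicate 2. The apolipoprotein L family had 3 of 5 genes lower (1 without pacritinib replicate 1), with APOL4 at -1.42 ± 0.13. Of 19 receptor tyrosine kinases 3 were higher and 6 lower (3 without pacritinib replicate 2). FGFR3 had 102 and 116 CPM with ruxolitinib, 45.1 and 47.8 CPM with pacritinib and 42.8 and 41.8 CPM with DMSO (1.23 ± 0.07, adjusted p = 2.95e-15), and IGF1R was higher (0.55 ± 0.05). Beside the lists from MHC class I to these kinases, 12.8% of all tested genes were higher and 11.8% lower.

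The mitochondrial rRNAs were lower with ruxolitinib. MT-RNR1 had 207 and 176 CPM with ruxolitinib, 449 and 395 CPM with pacritinib and 223 and 338 CPM with DMSO (-1.14 ± 0.27, adjusted p = 0.00164), and MT-RNR2 was lower as well (-0.92 ± 0.23). The DMSO libraries lay far apart from each other. The mitochondrial rRNA share of all counts, given above, is made of the reads of MT-RNR1 and MT-RNR2, so it is no separate measurement. Of 15 mitochondrially encoded genes 4 were lower and 0 higher (median -0.21), beside 11.8% lower and 12.8% higher among all tested genes. The 4 became 2 without ruxolitinib replicate 2 or pacritinib replicate 2, and 14 when the fit held only the libraries of 48 h or only the 4 compared, or had no low-count filter. Of 7 structural noncoding RNAs, MALAT1 was called, and it was higher (0.62).

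Values against DMSO placed these differences. Against the same 2 DMSO libraries, 4137 genes (25.7%) were called with ruxolitinib and 2948 (18.3%) with pacritinib, a count that was 1475 without pacritinib replicate 1, 1613 without DMSO replicate 2 and 1838 without DMSO replicate 1. Because the comparisons share libraries, their values are given side by side and no overlap between them is reported. Among the 10 globin genes, 9 were higher than DMSO with ruxolitinib and 0 lower (median 0.98). Of all tested genes, 12.5% were higher and 13.2% lower with ruxolitinib. With pacritinib, 3 globin genes were higher than DMSO and 2 lower (median 0.12), beside 8.26% higher and 10.1% lower among all. Both pacritinib counts moved when 1 library was left out. Among 25 membrane genes, 21 were higher than DMSO and 0 lower with ruxolitinib (median 0.56). With pacritinib, 11 were higher and 3 lower (median 0.14). ALAS2 was 1.90 ± 0.08 above DMSO with ruxolitinib and 0.22 ± 0.09 with pacritinib, where it was not called (adjusted p = 0.0773). This depended on the fit. With pacritinib, ALAS2 was called by edgeR with only the libraries of 48 h (adjusted p = 0.0323) or of the groups compared (adjusted p = 0.0279). It was also called with no low-count filter (adjusted p = 0.0258), and its log2 fold change was 0.35 without pacritinib replicate 2. JAK2 was 0.70 ± 0.05 above DMSO with ruxolitinib and -0.05 ± 0.05 with pacritinib (adjusted p = 0.592).

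LIF, CISH and SOCS3 lay on opposite sides of DMSO with the 2 inhibitors. LIF was at -1.97 ± 0.16 with ruxolitinib and 1.4 ± 0.12 with pacritinib, both called. CISH was at -0.33 ± 0.08 with ruxolitinib and 0.43 ± 0.07 with pacritinib, both called. SOCS3 was at -1.69 ± 0.13 with ruxolitinib and 0.46 ± 0.12 with pacritinib, and the pacritinib call was lost without DMSO replicate 1 (adjusted p = 0.0857). Among 23 genes on the JAK-STAT list, 17 were lower than DMSO with ruxolitinib (13.2% of all tested genes were lower) and 4 with pacritinib (10.1% of all), while 6 were higher with pacritinib (4 without either DMSO replicate or without pacritinib replicate 2). The share higher than DMSO with pacritinib was 8.26% among all tested genes. ERK outputs lay below DMSO with both, at a median of -1.19 with ruxolitinib and -0.31 with pacritinib. ETV5 was at -3.18 ± 0.10 with ruxolitinib and -0.59 ± 0.08 with pacritinib, and UBASH3B at -2.36 ± 0.06 with ruxolitinib and -0.43 ± 0.05 with pacritinib, all called.

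The serine and amino acid genes also diverged from DMSO in both directions. Among all tested genes, 8.26% were higher than DMSO and 10.1% lower with pacritinib, and 12.5% and 13.2% with ruxolitinib. Of the 28 ATF4 genes, 18 were higher than DMSO with pacritinib and 2 with ruxolitinib, and 1 was lower with pacritinib (0 without pacritinib replicate 1) and 13 with ruxolitinib. PHGDH was at -0.44 ± 0.07 with ruxolitinib and 1.21 ± 0.07 with pacritinib, and PSAT1 at -0.52 ± 0.07 with ruxolitinib and 0.72 ± 0.06 with pacritinib, all called. CHAC1 was not called with ruxolitinib (-0.27 ± 0.21, adjusted p = 0.408) and was 1.54 ± 0.18 above DMSO with pacritinib. ID2 was at -0.82 ± 0.11 with ruxolitinib and -1.47 ± 0.11 with pacritinib, and ID3 at -1.31 ± 0.12 with ruxolitinib and -2.01 ± 0.13 with pacritinib. MS4A2 was not called with ruxolitinib (-0.01 ± 0.11) and was 0.69 ± 0.11 above DMSO with pacritinib.

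**Figure D4:**
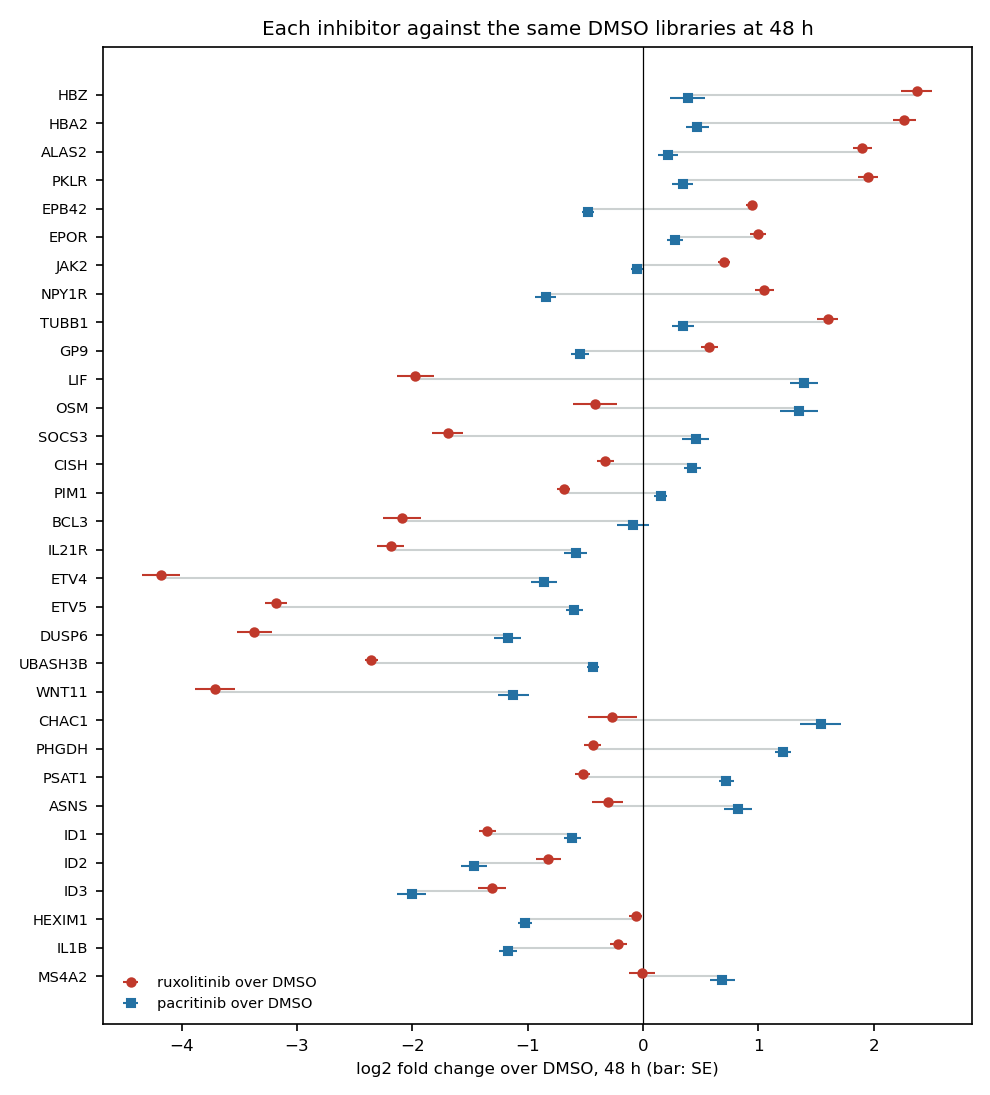
Log2 fold change over the same DMSO libraries at 48 h for 32 genes, with ruxolitinib as circles and pacritinib as squares (bars are the SE). Red cell genes such as HBZ lie right of 0 for ruxolitinib (2.38). With pacritinib HBZ is at 0.39, PKLR at 0.34 and EPOR at 0.28, while EPB42 lies left of 0. LIF and PHGDH lie on opposite sides of 0 for the 2 inhibitors, and HEXIM1 is at -1.02 with pacritinib and -0.06 with ruxolitinib.

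At 4 h the same contrast called 4111 genes (25.6%), 2331 higher and 1780 lower with ruxolitinib, and this count was 2484 without pacritinib 4 h replicate 2. Of the genes higher at 48 h, 615 were also higher at 4 h (29.8% of the 48 h genes and 26.4% of the 4 h genes), and 154 were lower at 4 h (7.47%). Of the genes lower at 48 h, 442 were also lower at 4 h (23.3% of the 48 h genes and 24.8% of the 4 h genes), and 202 were higher at 4 h (10.6%). The 48 h and 4 h contrasts share no libraries. A test of the difference between the times, which asks whether the gap between the inhibitors itself changed, called 3436 genes (21.4%), 1527 higher (9.5%) and 1909 lower (11.9%).

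The red cell difference was seen at 48 h. At 4 h, 0 of 10 globin genes were higher with ruxolitinib and 3 lower, or 2 without ruxolitinib 4 h replicate 2 or pacritinib 4 h replicate 1 (median -0.10; 14.5% of all tested genes were higher and 11.1% lower). ALAS2 had a log2 fold change, ruxolitinib over pacritinib, of -0.01 at 4 h and 1.69 at 48 h, and the gap widened by 1.70 ± 0.12 (adjusted p = 2.76e-12). HBZ was at -0.12 at 4 h and 1.99 at 48 h, HBA2 at 0.05 and 1.79, PKLR at 0.10 and 1.61, PAPPA at 0.04 and 2.08 and ITLN1 at 0.03 and 1.51, and none of these 5 was called at 4 h. JAK2 was already higher at 4 h (0.25 ± 0.05) and the gap grew to 0.75 at 48 h (difference 0.51, adjusted p = 6.3e-06).

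At 4 h, 11 of the 23 JAK-STAT target genes were already lower with ruxolitinib (11.1% of all tested genes were lower), while SOCS1 (-0.32, adjusted p = 0.276) and SOCS2 (0.16, adjusted p = 0.18) were not called. CISH was at -1.19 ± 0.08 at 4 h and -0.75 ± 0.08 at 48 h, and PIM1 at -1.44 ± 0.06 and -0.84 ± 0.05, so these gaps narrowed, by 0.44 (adjusted p = 0.00496) and 0.60 (adjusted p = 5.1e-07). The CISH change lost its call without pacritinib 4 h replicate 1 (adjusted p = 0.0667). LIF widened, at -0.93 ± 0.14 at 4 h and -3.37 ± 0.15 at 48 h. SOCS3 was at -1.38 ± 0.16 and -2.15 ± 0.13, a widening that lost its call without ruxolitinib 4 h replicate 2 (adjusted p = 0.0576) or pacritinib 4 h replicate 2 (adjusted p = 0.0566). Of the 18 ERK outputs, 2 were higher and 2 lower with ruxolitinib at 4 h (median 0.009). Among all tested genes 14.5% were higher and 11.1% lower, and both ERK counts moved when 1 library was left out. Among single ERK outputs, EGR1 was at -1.48 at 4 h and -1.52 at 48 h, with no call on the difference (-0.03, 95% interval -0.47 to 0.40). ETV4 was at -0.03 and -3.32, ETV5 at -0.21 and -2.59, and DUSP6 at -1.16 and -2.19. WNT11 followed the ETS factors, at -0.26 and -2.59.

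HEXIM1, MEPCE, ID2, ID3 and MS4A2 had a larger gap at 4 h than at 48 h. HEXIM1 was at 1.86 ± 0.06 at 4 h and 0.96 ± 0.06 at 48 h (difference -0.89, adjusted p = 3.41e-09), and MEPCE at 1.24 and 0.21. ID2 was at 1.45 and 0.65 and ID3 at 1.84 and 0.70, and MS4A2, higher with pacritinib, was at -1.41 and -0.70. PHGDH (-0.21 and -1.65, with the 4 h call lost without ruxolitinib 4 h replicate 2 or pacritinib 4 h replicate 1) and CHAC1 (-0.77 and -1.81) had smaller gaps at 4 h than at 48 h. Of the 28 ATF4 genes, 15 were already lower with ruxolitinib at 4 h and 4 higher (median -0.21), beside 11.1% and 14.5% of all tested genes. The count of lower ATF4 genes fell when any 1 of the 4 h inhibitor libraries compared was left out. Some genes turned round: THBS1 was higher with ruxolitinib at 4 h (0.82 ± 0.09) and lower at 48 h (-0.92 ± 0.09). The mitochondrial rRNAs did the same, MT-RNR1 at 1.73 and -1.14 and MT-RNR2 at 1.88 and -0.92, and at 4 h they took 0.0604 and 0.0611% of counts with ruxolitinib, against 0.0141 and 0.0191% with pacritinib.

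**Figure D5:**
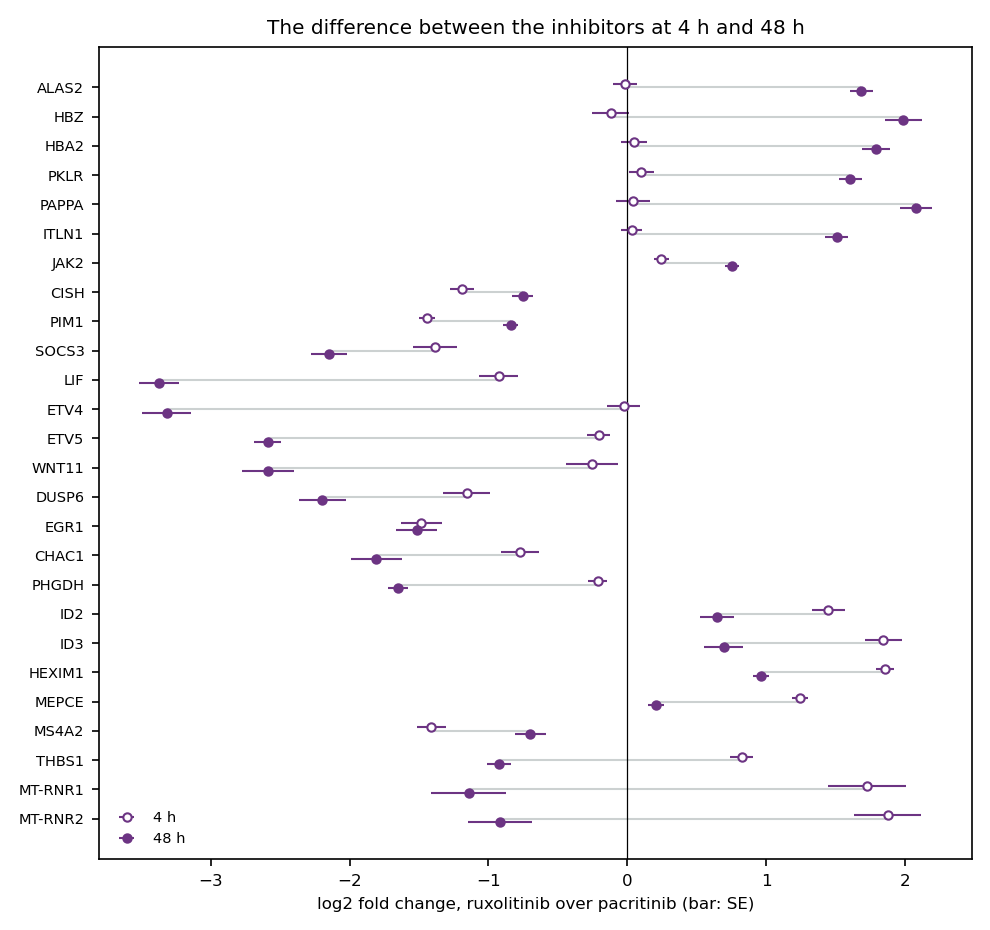
Log2 fold change, ruxolitinib over pacritinib, at 4 h (open) and 48 h (filled) for 26 genes, with the SE as bars. The 6 genes from ALAS2 to ITLN1 lie near 0 at 4 h and at 1.51 or above at 48 h, ETV4 and WNT11 are near 0 at 4 h and far below it at 48 h, EGR1 is at -1.48 and -1.52, and THBS1 and the mitochondrial rRNAs cross 0.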

How the data were processed

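RNA sequencing covered 24 libraries of HEL cells (DMSO or 1 of 5 JAK inhibitors, 4 h or 48 h, 2 libraries per group). The tools named, per the submitters' processing notes, are bcl2fastq, STAR 2.5.1a and edgeR, with the genome build GRCh38. The authors deposited read counts per gene as whole numbers. How reads were counted, on which annotation and with which strand setting is not given in the sources used here, so reads of overlapping or antisense genes cannot be told apart. Of 34343 entries, 130 were repeats of an Ensembl ID and were dropped, which left 34213 genes. Coordinates came from GENCODE 29 and promoter sequences from RefSeq (GRCh38.p14).

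Counts were tested with edgeR 4.0.16 (R 4.3.3, limma 3.58.1). The steps were filterByExpr (16076 genes kept), TMM scaling and a quasi-likelihood fit of all 24 libraries with group means only (12 residual and a median of 19.4 prior degrees of freedom, common biological coefficient of variation 0.0468). Benjamini-Hochberg adjustment ran over every tested gene, with 0.05 as the threshold. The SE is the absolute log2 fold change divided by the square root of F. CPM of a gene are scaled by TMM, and summed CPM of a list are unscaled shares of all counts. The 40 gene lists are described by counts and medians with no set test. The members, lists and naming rule were chosen with earlier results of these data known. A gene could be named from a panel of 38 genes, among the 15 most changed per direction (mean log2 CPM 3 or more, no overlap), as 1 of up to 5 called list members with the largest differences, as 1 of the 6 largest changes between the times per direction, or as a member of a list of up to 12. Lineage markers could also be named. A chi-square check of the gene counts in the 2 libraries of each group found no group whose libraries were copies of each other. Alternatives were DESeq2 1.42.0, RLE scaling, no or a stricter filter (1 CPM in 6 libraries), fewer libraries in the fit, a replicate block and each library left out. The tests were tested on simulated data. Some genes that the rule allows are not reported here.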

Additional observations from a re-analysis of the deposited data

Results flagged for a closer look

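The gap between ruxolitinib and pacritinib, taken as log2 fold change, ruxolitinib over pacritinib, differed between 48 h and 4 h for 3436 genes (edgeR test of the difference, 21.4% of those tested), a count that was 2422 without pacritinib 4 h replicate 2 and 2660 to 3183 without another of the 8 libraries. Among the genes named, these differed by the same test, with the 48 h minus 4 h difference given for each. A positive difference in HBZ (2.11), PAPPA (2.04), HBA2 (1.74), ALAS2 (1.70), PKLR (1.51), ITLN1 (1.476) and JAK2 (0.51) marks a gap in favour of ruxolitinib that was larger at 48 h. In MS4A2 (0.71), PIM1 (0.60) and CISH (0.44) it marks a gap in favour of pacritinib that was smaller at 48 h. A negative difference in ETV4 (-3.29), LIF (-2.44), ETV5 (-2.38), WNT11 (-2.33), PHGDH (-1.44), DUSP6 (-1.04), CHAC1 (-1.04) and SOCS3 (-0.77) marks a gap in favour of pacritinib that was larger at 48 h. In ID3 (-1.15), MEPCE (-1.04), HEXIM1 (-0.89) and ID2 (-0.80) the gap in favour of ruxolitinib was smaller at 48 h. MT-RNR1 (-2.87), MT-RNR2 (-2.79) and THBS1 (-1.75) were higher with ruxolitinib at 4 h and lower at 48 h. The share of counts in mitochondrial rRNA is made of the reads of MT-RNR1 and MT-RNR2, so it is no separate measurement. Whether library preparation had a part in the change of these rRNAs was not tested.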

How the results depend on the processing

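The comparison of ruxolitinib with pacritinib at 48 h called 3960 genes, and 3949 with DESeq2, 3953 with RLE scaling, 4142 with only the 4 libraries compared, 4302 with the libraries of 48 h, 3744 without a filter, 4040 with the stricter filter and 3944 for protein-coding genes alone, an alternative chosen after seeing the data. Leaving out 1 library gave 2757 to 2949. The same step gave 2777 to 3078 for ruxolitinib against DMSO, 1475 to 2208 for pacritinib against DMSO and 2484 to 3242 for the inhibitors at 4 h, with the lone library of a group assumed to vary like the other groups. Of 130 genes followed through the alternatives, 126 were called, and 119 of these kept the call under every alternative that tested them (7 of the 130 were not tested under 1 or more). The other 7 (MYC, MEPCE, HMGCS1, BAMBI, CCNE2, MYCN and SMAD7) lost it when a library was left out. The naming rule favoured genes with large differences in this same fit, so these counts do not stand for all 3960 called genes. The share of those that kept the call with 1 library left out is given above and was smaller. SMAD9, which was not called, ran from -1.49 to 0.16 when a library was left out, with a positive sign without ruxolitinib replicate 1 (0.16) and without pacritinib replicate 2 (0.12), and the cause was not tested. The labels do not say that replicate numbers pair samples. Differences between replicates 1 and 2 correlated at 0.077 between ruxolitinib and pacritinib at 48 h and at 0.122 at 4 h, and between -0.349 and 0.383 over all pairs of groups, so the numbers were not taken to pair the samples. The fit with the replicate block called 4115 genes. With 2 libraries per group, a p over the threshold does not show that levels were alike, and genes of about 1 CPM rest on few reads.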
